A study of Mus musculus with 4 samples.

Results

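The 10 transcription factor genes described here are Pou5f1, Nanog, Sox2, Klf2, Klf4, Klf5, Esrrb, Tfcp2l1, Tbx3 and Zfp42, which form the core and the naive layer of the pluripotency network of mouse embryonic stem cells. They were taken by name, as every probe set whose gene symbol in the platform annotation is exactly that of a member. This gave 21 probe sets for 10 of the 18194 genes that the annotation names alone. RNA came from E14Tg2A.4, a feeder-independent subline of E14Tg2a, which is a mouse embryonic stem cell line that lacks Hprt. Cells of 2 arrays had been exposed for 1 h to bone morphogenetic protein 2 (BMP-2, 25 ng/ml), and cells of the other 2 arrays had been left without it for the same time. All 4 samples are of this single line, and the labels give neither the culture medium nor whether replicates were grown as separate cultures. The p-values below therefore rest on a spread between arrays that may be only technical.

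Pluripotent cells can give rise to every lineage of the embryo, and they hold this state through a set of transcription factors that bind each other's regulatory DNA. POU5F1 (also called OCT4) and SOX2 bind side by side on composite DNA elements, and with NANOG they occupy many enhancers of active stem cell genes. KLF2, KLF4, KLF5, ESRRB, TFCP2L1 and TBX3 support the naive state, several of them downstream of leukaemia inhibitory factor or Wnt signals. Zfp42, which encodes REX1, is widely used as a marker of that state. BMP signals act through SMAD1 and SMAD5 and are known to sustain embryonic stem cells together with leukaemia inhibitory factor, in part by inducing Id genes.

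RefSeq promoter windows (assembly GRCm38.p6) matched 8 of the 10 genes by Entrez identifier, and Klf5 and Tbx3 had no entry. The 250 bases before the most upstream annotated start are shown for 4 genes, because they carry the letters through which the factors of this network are known to recognise DNA. Other matches counted below were left in lower case. Capitals mark a chosen motif in each window, in either orientation. In Nanog (chr6:122707239-122707488, plus strand) they mark an OCT4-SOX2 composite element, in Sox2 (chr3:34649745-34649994, plus strand) and Zfp42 (chr8:43307010-43307259, minus strand) an octamer core, and in Pou5f1 (chr17:35505782-35506031, plus strand) an element of the kind bound by nuclear receptors.
Nanog: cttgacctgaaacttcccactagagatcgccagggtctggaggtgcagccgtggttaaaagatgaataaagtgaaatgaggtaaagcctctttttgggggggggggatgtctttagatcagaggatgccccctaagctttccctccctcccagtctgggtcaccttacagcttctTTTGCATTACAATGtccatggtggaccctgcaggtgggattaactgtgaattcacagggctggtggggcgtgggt
Sox2: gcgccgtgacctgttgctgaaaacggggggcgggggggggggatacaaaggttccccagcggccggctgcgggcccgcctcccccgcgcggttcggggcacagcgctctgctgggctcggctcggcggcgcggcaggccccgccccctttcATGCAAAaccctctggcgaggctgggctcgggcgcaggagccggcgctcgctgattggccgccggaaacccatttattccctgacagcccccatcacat
Zfp42: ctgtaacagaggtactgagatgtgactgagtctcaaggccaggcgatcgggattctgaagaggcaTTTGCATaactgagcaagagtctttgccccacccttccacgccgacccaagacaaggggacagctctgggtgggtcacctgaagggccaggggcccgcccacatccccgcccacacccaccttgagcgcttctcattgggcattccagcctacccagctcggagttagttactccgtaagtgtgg
Pou5f1: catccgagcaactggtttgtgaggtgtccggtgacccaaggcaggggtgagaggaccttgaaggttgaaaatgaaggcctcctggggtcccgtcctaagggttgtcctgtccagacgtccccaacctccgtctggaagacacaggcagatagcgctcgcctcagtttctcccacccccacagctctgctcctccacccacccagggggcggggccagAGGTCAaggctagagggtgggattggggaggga

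The composite was searched on both strands as the SOX core CATTGT, any 1 base, and the octamer core ATGCAAA in that order, and was held by 1 of 27025 windows (0.0037%), that of Nanog. These letters were chosen with the Nanog window in view, so the match is a description only. The SOX core by itself was held by 10.9% of all windows and by 1 of the 8 members, and the octamer core by 4.07% of all windows and by 3 of the 8 (Nanog, Sox2 and Zfp42). The overlap means that the Nanog element counts under all 3 searches. The nuclear receptor element AGGTCA was held by 13.8% of all windows and also by 3 members (Pou5f1, Nanog and Sox2), and the longer ESRRB element TCAAGGTCA by 0.366% of windows and by 0 members. The GC box GGGCGGGG, a class of site that SP and KLF factors can bind, was held by 16.3% of all windows and by 5 members (Pou5f1, Sox2, Klf2, Klf4 and Zfp42). The palindrome GGCGCC, part of sites known for SMAD1 and SMAD5, was held by 9.57% of all windows and by 1 member, Tfcp2l1. A match of letters is not a measured binding site, and no binding was measured here.

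Transcripts were measured on one-colour Affymetrix arrays as linear MAS5 signals, a summary of the matched and mismatched probes of each probe set. A probe set was tested when its mean log2 signal lay above the 40th percentile of all probe sets other than controls, a signal of 53.0, and 27022 probe sets were tested. Median signals were 81.8 to 94.9 over the 4 arrays, and precision is limited by there being 4 arrays. Untreated replicate 2 stood apart in its 18S ribosomal RNA controls, which read 3.94 to 6.11 times the highest of the other arrays, so each member's value without it is given below. As a check of the treatment, Id1, Id2 and Id3, early BMP target genes, rose by 1.65, 1.76 and 1.73 log2 (limma adjusted p = 2.0e-05, 3.6e-05 and 3.6e-05). All 6 early BMP genes of the check list lay higher on both treated arrays, as did 15.9% of all tested probe sets. Of these 6, Id4, Smad6 and Smad7 did not pass an adjusted p of 0.05 by limma. When the variance was fitted without its trend on signal, 0 probe sets passed by limma, and the calls of Id1, Id2 and Id3 were lost (1023 probe sets then had an unadjusted p under 0.05). Signals of different probe sets are not compared in level, since each has its own probes and these bind with unequal strength. In these extracts of whole cultures, fewer expressing cells and less RNA per cell cannot be told apart.

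All 10 members, which are defining markers of the labelled cell type, had at least 1 probe set above the signal limit. In all, 15 of the 21 member probe sets were tested and 6 were too dim. After 1 h of BMP-2, 0 of the 15 passed an adjusted p of 0.05 by limma, against 0.0185% of all tested probe sets. At an unadjusted p under 0.05 there were 2 of the 15 (13.3%), both of them probe sets of Tbx3, against 3.07% of all tested probe sets. That set depended on single arrays. In the fits without 1 array the brightest Tbx3 probe set ran from 0.31 to 0.40 log2 and the second from 0.33 to 0.60 log2. The second Klf5 ran from 0.18 to 0.56 log2, the second Esrrb from -0.35 to -0.026 and the third Esrrb from 0.11 to 0.42. Taking the brightest probe set of each gene, 4 members lay higher and 6 lower with BMP-2, where 52.2% of all tested probe sets lay higher. The median difference was -0.0066 log2, beside 0.0076 log2 over all tested probe sets. The differences ran from -0.11 log2 for Zfp42 to 0.36 log2 for Tbx3. These directions are loose for 5 of the genes: Sox2, Klf4, Klf5, Esrrb and Tfcp2l1 took the opposite sign on the brightest probe set in at least 1 alternative setting. The 12 alternatives followed for each probe set comprise other scalings, filters and variance models and the fits without 1 array.

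**Figure D1:**
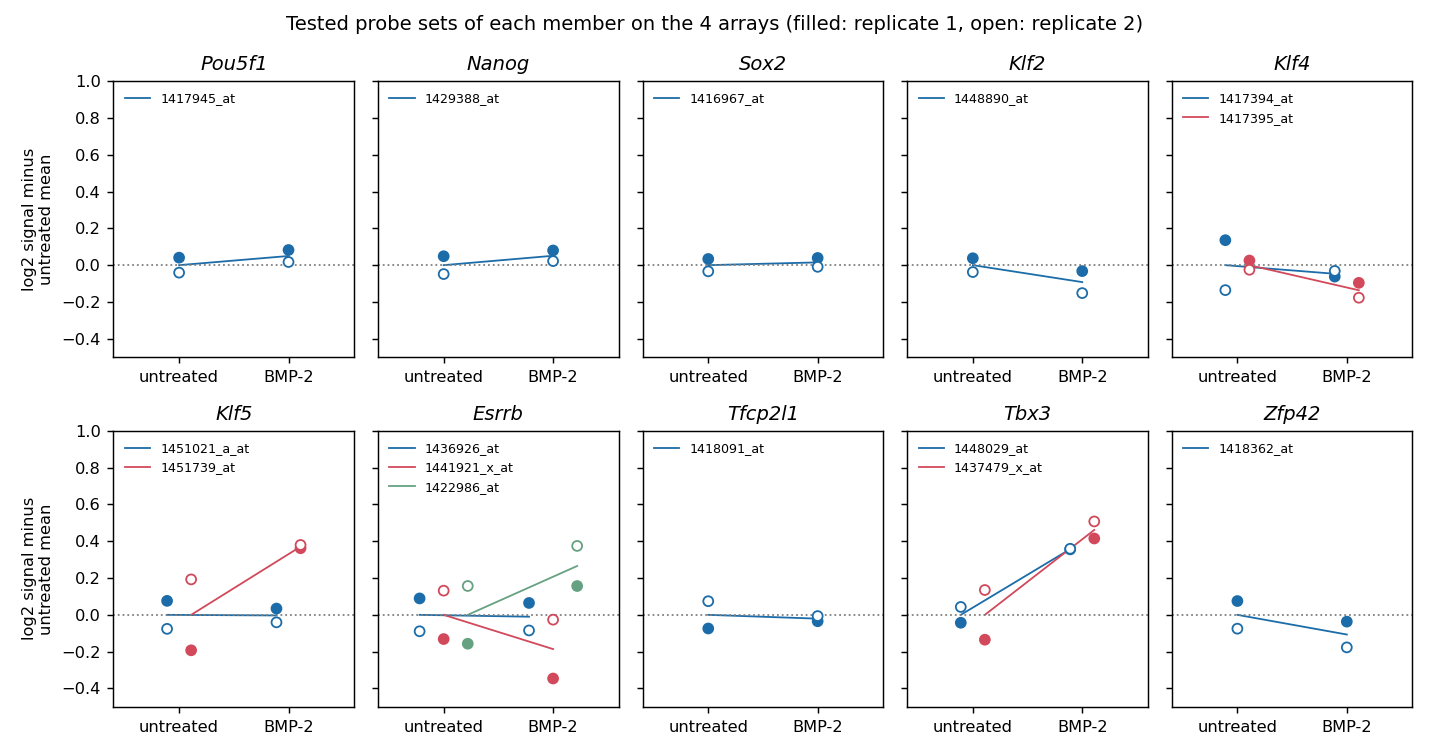
Log2 signal of each tested member probe set on the 4 arrays, minus the mean of its 2 untreated arrays, with untreated arrays on the left and BMP-2 arrays on the right of each panel. Filled points are replicate 1, open points replicate 2, and lines join group means. Both Tbx3 probe sets and a dimmer Klf5 probe set have their 2 treated points above both untreated points, and Pou5f1, Nanog and Sox2 lie nearly flat.

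The core factors were the members measured with the smallest SEs, and their differences lay within 0.051 log2 of 0. Pou5f1, which encodes a POU-domain factor required for a pluripotent inner cell mass, read 11209.7 and 10714 on the treated arrays and 10891 and 10293 on the untreated arrays. The groups overlapped, and both replicate 1 arrays read higher than both replicate 2 arrays. The untreated mean was 10592 ± 423 (SD, n = 2), and the difference was 0.050 ± 0.068 log2 (SE, limma adjusted p = 1.00), or 1.04-fold with a 95% interval of 0.932 to 1.15. It lay at 0.0090 log2 without untreated replicate 2 and at 0.090 log2 without untreated replicate 1.

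Nanog, which encodes a homeodomain factor that can uphold self-renewal without leukaemia inhibitory factor when raised, read 11040.2 and 10608 with BMP-2 and 10803 and 10101.5 without. Its groups overlapped as well, in the same order of arrays as for Pou5f1. The untreated mean was 10452 ± 496 (SD, n = 2), and the difference of 0.051 ± 0.069 log2 (SE, limma adjusted p = 1.00) had a fold interval of 0.931 to 1.15. Without untreated replicate 2 it was 0.0025 log2, and without untreated replicate 1 it was 0.099 log2. Sox2, which encodes the HMG-box partner of OCT4, read 15126 and 14629.6 against 15069 and 14383. The difference was 0.015 ± 0.064 log2 (SE, limma adjusted p = 1.00), the smallest SE among the members, and the fold interval of 0.916 to 1.11 bounds the changes these arrays could have missed. Sox2 turned to -0.016 log2 when arrays were centred on the median of the tested probe sets, to -0.0091 without treated replicate 1 and to -0.019 without untreated replicate 2. Mouse Pou5f1 and Nanog have processed pseudogenes, and whether their probes also match transcripts of these was not tested.

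Among the Krüppel-like factors, zinc-finger proteins with overlapping roles in self-renewal, no probe set passed. Klf2 read 6964 and 6411 with BMP-2 and 7309.9 and 6939.9 without. Only treated replicate 2 lay clearly under the untreated arrays, and treated replicate 1 fell between them. The difference was -0.092 ± 0.076 log2 (SE, limma adjusted p = 1.00), or 0.938-fold with an interval of 0.834 to 1.05. Leaving out treated replicate 1 gave -0.15 log2, leaving out treated replicate 2 gave -0.032, and without untreated replicates 1 and 2 in turn it was -0.055 and -0.13.

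Klf4, a factor used for reprogramming and a known target of STAT3, has 2 tested probe sets that name the same source sequence. The brighter read 3774 and 3855 against 4328 and 3587, so both treated arrays lay between the untreated ones. The dimmer read 2052 and 1939.8 against 2231 and 2155, and its treated arrays lay below both untreated arrays. The differences were -0.047 ± 0.098 and -0.14 ± 0.090 log2 (SE, limma adjusted p = 1.00 for each). The untreated SD was 524 on the brighter probe set (n = 2), or 13.3% of its mean, against 2.46% on the dimmer. Without untreated replicate 1 the brighter probe set turned to 0.089 log2, and without untreated replicate 2 it lay at -0.18 log2, with the dimmer at -0.16 log2.

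Klf5, which restrains primitive endoderm formation in the early embryo, has 3 probe sets, 2 of them tested. The brightest, whose suffix marks probes shared by transcript variants of the gene, read 5311 and 5043 with BMP-2 and 5468 and 4921 without, a difference of -0.0032 ± 0.082 log2 (SE, limma adjusted p = 1.00). It lay at -0.079 log2 without untreated replicate 2 and at 0.073 log2 without untreated replicate 1. The second read 389 and 394 against 265 and 346, with both treated arrays above both untreated arrays, and differed by 0.37 ± 0.17 log2 (SE, limma adjusted p = 1.00, fold interval 0.992 to 1.69). That second value was 0.56 log2 without untreated replicate 2 and 0.18 log2 without untreated replicate 1. The third read 21.1 and 21.3 against 55.8 and 47.6, lower on both treated arrays, but both group means lay under the signal limit and it was not tested. The gap between the first 2 was 0.37 log2, or 1.96 times its SE if their errors were independent, and their 95% intervals overlapped.

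Esrrb, an orphan nuclear receptor downstream of Wnt and GSK3 signals, gave 3 tested probe sets with differing signs. The brightest read 3656 and 3297 with BMP-2 and 3719 and 3286 without, and its treated arrays lay inside the untreated range. The second, whose suffix marks probes that may match other transcripts, read 1153 and 1439 against 1338 and 1605. The third read 473 and 549.6 against 380.3 and 473. In the last 2 probe sets, unlike the first, replicate 2 was the higher array in both groups. The differences were -0.010 ± 0.094, -0.19 ± 0.13 and 0.27 ± 0.16 log2 (SE, limma adjusted p = 1.00 for each). Their range of 0.45 log2 was the widest of the 4 genes with over 1 tested probe set, and all 3 intervals overlapped. The first lay at -0.099 log2 without untreated replicate 2 and at 0.079 log2 without untreated replicate 1. The second ran further, from -0.026 log2 without treated replicate 1 to -0.35 without treated replicate 2, with -0.32 and -0.055 without untreated replicates 1 and 2 in turn. The third lay at 0.42 log2 without untreated replicate 2 and at 0.11 log2 without untreated replicate 1. The mean of the 3 was 0.023 log2.

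Tfcp2l1, a grainyhead-related factor and target of STAT3, read 1529 and 1559.5 with BMP-2 and 1488 and 1649 without on its tested probe set. The treated arrays lay between the untreated ones, and the difference was -0.021 ± 0.10 log2 (SE, limma adjusted p = 1.00, fold interval 0.845 to 1.15). It turned to 0.053 log2 without untreated replicate 2. Its other 2 probe sets were dim on every array, at 20.4 and 1.09 with BMP-2 and 1.04 and 15.8 without on the first, and at 20.6, 3.44, 4.29 and 20.5 in the same order on the second. These dim probe sets, built on the same source sequence, were high and low on the same arrays, with 1 high array in each group. Zfp42 read 11762 and 10676 with BMP-2 and 12711 and 11455 without. Its groups overlapped, and the difference was -0.11 ± 0.078 log2 (SE, limma adjusted p = 1.00), or 0.929-fold with an interval of 0.823 to 1.05. Zfp42 lay at -0.18 log2 without treated replicate 1 and also without untreated replicate 2, at -0.037 without treated replicate 2 and at -0.032 without untreated replicate 1.

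Tbx3 was the member furthest from 0. It encodes a T-box factor that supports self-renewal and is also known from extraembryonic endoderm and limb development. Its brightest probe set read 906 and 908 with BMP-2 and 687 and 729.6 without, and both treated arrays lay above both untreated arrays. The untreated mean was 709 ± 29.8 and the treated mean 907 ± 1.41 (SD, n = 2 each). The difference was 0.36 ± 0.11 log2 (SE), or 1.28-fold with an interval of 1.07 to 1.53, and it did not pass over all tested probe sets (limma adjusted p = 1.00, unadjusted p = 0.0105). The second, whose suffix marks probes that may match other transcripts, read 380.1 and 405 against 259.6 and 313, again without overlap. It differed by 0.46 ± 0.16 log2 (SE), or 1.38-fold with an interval of 1.07 to 1.77 (limma adjusted p = 1.00, unadjusted p = 0.018). Both probe sets measured the same RNA and are not independent evidence.

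Over the 12 alternatives the Tbx3 difference stayed above 0, at 0.31 to 0.40 log2 on the brightest probe set and 0.33 to 0.60 log2 on the second. It passed in 0 of them, with adjusted p values of 0.748 to 1.00 and 0.758 to 1.00 by limma. Without untreated replicate 2 the values were 0.40 and 0.60 log2. The filters, the variance model and the replicate block leave a difference as it is, so they could not turn its sign. Nor could leaving out an array, since the groups of both probe sets did not overlap. The other 3 Tbx3 probe sets were too dim to be tested, with signals of 2.89 to 15.9 over the 4 arrays. Summed signals of 7 primitive endoderm markers were 689 and 849 with BMP-2 and 575 and 676 without. Of the 7, Pdgfra and Afp lay under the signal limit. In each group replicate 2 had the higher sum, as it had the higher median signal over all probe sets. Of the 5 tested markers Sox7 alone lay higher on both treated arrays. The part of primitive endoderm cells in the Tbx3 signal was not tested.

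**Figure D2:**
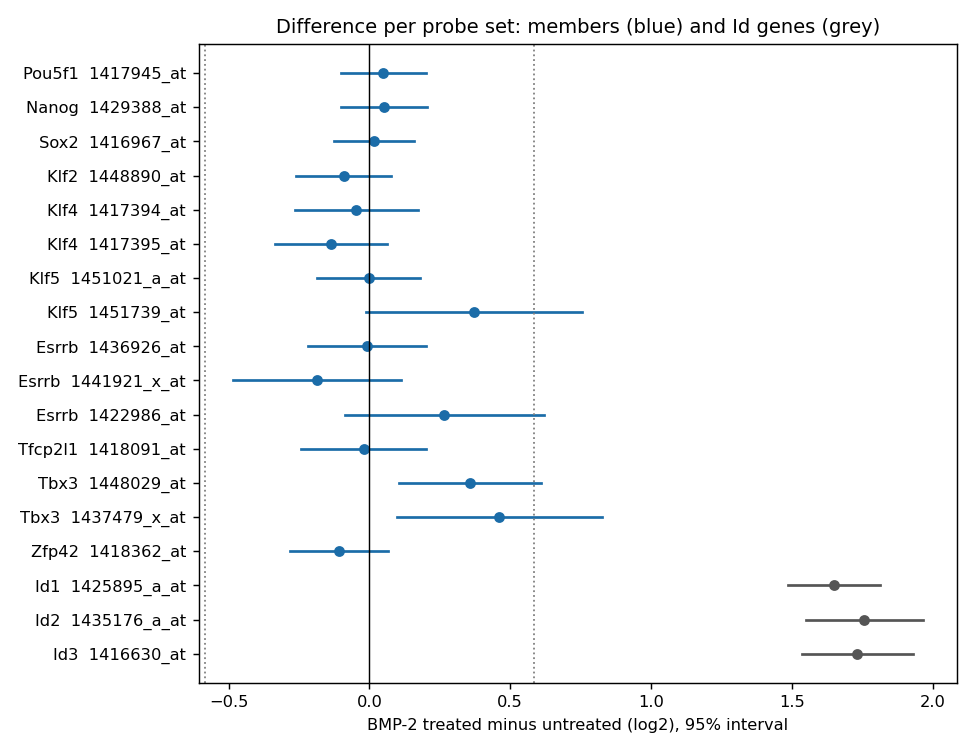
BMP-2 treated minus untreated difference on the log2 scale for the 15 tested member probe sets (blue) and for Id1, Id2 and Id3 (grey), with 95% intervals from limma and n = 2 arrays per group. Dotted lines mark 1.5-fold in either direction. The Tbx3 intervals alone among the members lie clear of 0, on unadjusted intervals, and the Id genes lie beyond all members.

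The intervals show which changes these arrays could have missed. For 9 of the 10 members the 95% interval of the brightest probe set stayed within 1.5-fold in both directions, and Tbx3, which reached 1.53-fold, was the exception. Over all tested member probe sets 11 of 15 stayed within 1.5-fold, beside 54.2% of all tested probe sets. The remaining 4 were both Tbx3 probe sets, the dimmer Klf5 and the dimmest tested Esrrb. Such an interval does not show that a gene was unaffected. The SE of the difference was 0.064 to 0.17 log2 over the member probe sets, with a median of 0.094 log2 beside 0.18 log2 over all tested probe sets. The residual SD within groups had a median of 0.085 log2 for the members and 0.15 log2 for all tested probe sets.

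**Figure D3:**
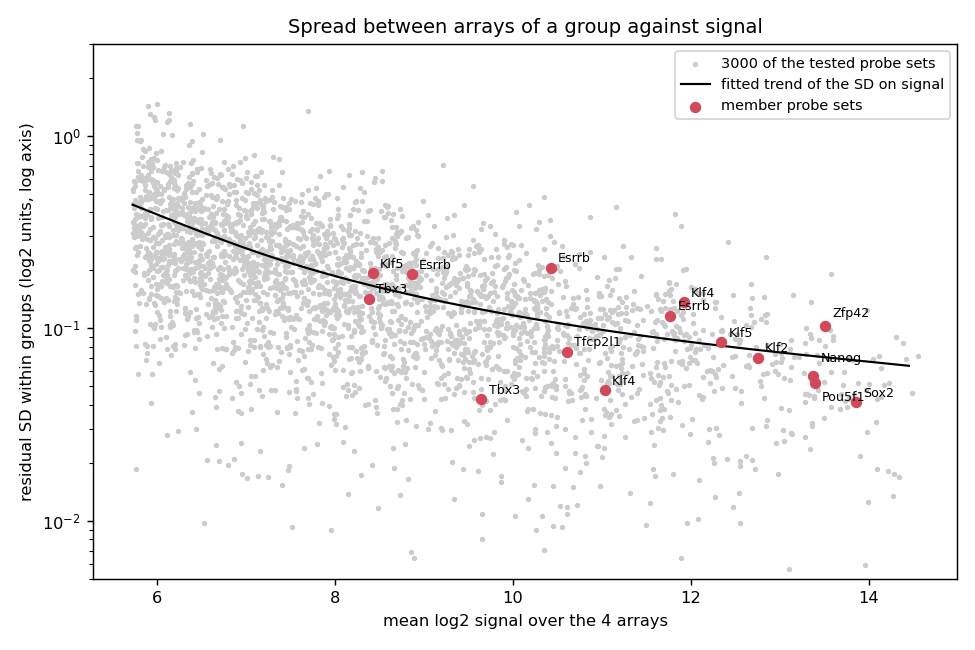
Residual SD within groups (log2 units, log axis) against the mean log2 signal over the 4 arrays, for the 15 member probe sets (red), 3000 of the tested probe sets drawn at random (grey) and the trend that limma fitted (line). Spread falls as signal rises, and most members lie near the line. A Tbx3 and a Klf4 probe set lie well under it, and an Esrrb probe set lies well over it.

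The precision came with brightness and was partly borrowed. For the brightest Tbx3 probe set the residual SD was 0.043 log2 and the SD expected at its signal was 0.13 log2, and the fit used 0.11 log2. For the Esrrb probe set at -0.19 log2 these values were 0.21, 0.11 and 0.13 log2. Prior degrees of freedom (7.98) outnumbered residual ones (2), and each error thus leans on other probe sets of like signal. Treated and untreated arrays did not overlap for 4 of the 15 member probe sets (26.7%), beside 28.4% of all tested probe sets. Of these, 3 were higher with BMP-2 (both Tbx3 probe sets and the dimmer Klf5, beside 15.9% of all) and 1 was lower (the dimmer Klf4, beside 12.5% of all).

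Genes that act with the members were followed in 5 lists written from general knowledge, and none of these lists held a gene past the threshold by limma. At an unadjusted p under 0.05 by limma there were 2 of 18 other regulators, 0 of 17 target and marker genes and 2 of 15 signalling genes. To these come 1 of 17 family relatives and 1 of 9 primed epiblast genes, beside 3.07% of all tested probe sets. Of 20 other pluripotency regulators 18 were tested, with 6 higher, 12 lower and a median of -0.020 log2. Those with the smallest p were Gbx2 (889 and 802 against 1378 and 1121, -0.56 log2), Nr0b1, which encodes the OCT4 partner DAX1 (3779.7 and 3562 against 4473 and 3972, -0.20 log2), and Nr5a2, which encodes the nuclear receptor LRH1 (1956 and 1772 against 2512 and 1904, -0.23 log2). The limma adjusted p values of these 3 were 0.910, 1.00 and 1.00. Gbx2 and Nr0b1 lay lower on both treated arrays, and Nr5a2 overlapped.

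Of 18 known target and marker genes of the network 17 were tested, with 10 higher, 7 lower and a median of 0.0065 log2. Their differences ran from -0.12 to 0.068 log2, and those with the smallest p were Fbxo15 (-0.12 log2), Tex19.1 (-0.078 log2) and Alpl (-0.10 log2), each with a limma adjusted p of 1.00. Fgf4, Lefty1, Dppa3, Tdgf1 and Lin28a were also on this list. Of 16 genes of the signals that feed the network 15 were tested, with 11 higher, 4 lower and a median of 0.048 log2. Smad1, a mediator of BMP signals, read 873 and 825 against 653 and 647 (0.38 log2). Socs3, the feedback inhibitor of STAT3 signalling, read 2210.1 and 2287 against 2939.8 and 2505 (-0.27 log2). Bmpr1a, a type I BMP receptor, read 1089.5 and 1034 against 880.5 and 919 (0.24 log2). For each of these 3 genes the groups did not overlap, and the limma adjusted p was 1.00.

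**Figure D4:**
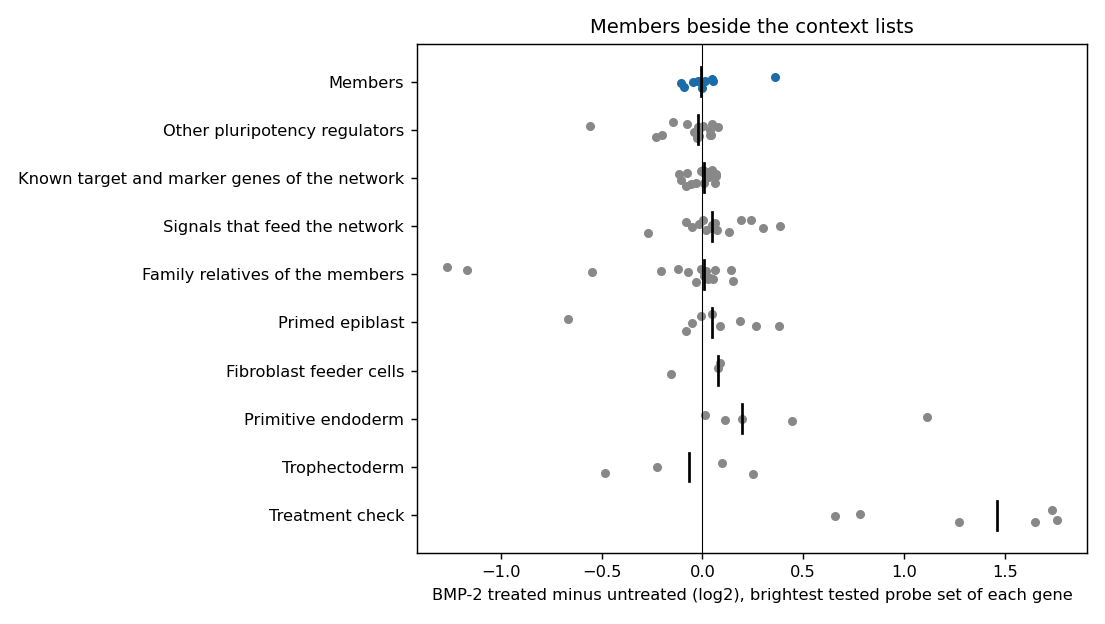
BMP-2 treated minus untreated difference on the log2 scale for the brightest tested probe set of each gene, for the 10 members (blue) and each context list (grey), with the list median as a black bar. Members lie between -0.11 and 0.36 log2, and only the treatment check list, with a median of 1.46 log2, lies wholly to the right of them.

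Of 20 family relatives of the members (other KLF, estrogen-related receptor, TBX, POU and SOX genes among them) 17 were tested, with 9 higher, 8 lower and a median of 0.0062 log2. Klf15 (24.8 and 67.4 against 112 and 86.3) and Esrrg (19.9 and 76.7 against 95.3 and 80.8) lay lower on both treated arrays, on dim probe sets with an array under the signal limit. Their treated means, 46.1 and 48.3, lay under that limit, and they were tested only through their untreated signals. Their direction was thus partly set by the filter, and Klf15 is the relative counted above at an unadjusted p under 0.05. Klf10, a TGF-beta inducible member of the KLF family, read 1745 and 1773 against 1559 and 1609 (0.15 log2). The limma adjusted p was 1.00 for all 3. Of 10 primed epiblast genes, which mark the state that follows the naive one, 9 were tested, with 5 higher, 4 lower and a median of 0.047 log2. Lef1 (952 and 894 against 772 and 764, 0.27 log2), Fgf5 (98.8 and 68.8 against 189 and 90.6, -0.67 log2) and Zic2 (438 and 354 against 400.2 and 228, 0.38 log2) had the smallest p, each with a limma adjusted p of 1.00. Lef1 alone of these 3 did not overlap.

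Other cell types that such cultures can hold were followed through their markers. Of 7 fibroblast feeder markers 3 were tested (Thy1, Acta2 and Col1a2), while Col1a1, Col3a1, Lum and Postn lay under the signal limit. The summed signal was 1309 and 1574 with BMP-2 and 1296 and 1453 without. Most of it was Acta2 (815 and 989 against 797 and 906). Of 7 trophectoderm markers 4 were tested, while Cdx2, Elf5 and Gata3 lay under the limit, and the sums were 2245 and 2568 against 2230.1 and 2284. Most of these sums was Tfap2c (1692 and 1941 against 1680 and 1707). All 5 tested primitive endoderm markers were higher with BMP-2, from 0.011 to 1.11 log2, where 52.2% of all tested probe sets lay higher. None passed by limma (1 at an unadjusted p under 0.05). The largest difference was that of Sox7 (111 and 135 against 63.5 and 50.9, adjusted p = 1.00). Only Sox7 lay higher on both treated arrays, and its untreated replicate 2 read under the signal limit. Gata4, Gata6 and Sox17 were dim too, at 69.7 to 144 over the 4 arrays. Their groups overlapped, as did those of Dab2.

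The mean profile of the 10 members over the 4 arrays, each centred on its own mean, was 0.039 and -0.020 log2 on the treated arrays and 0.032 and -0.052 log2 on the untreated arrays. The array pattern thus followed the replicate number more than the treatment. The genes closest to it were Hnrnph1, Cul1 and Gtf2h4, with root mean square gaps of 0.0019, 0.0029 and 0.0032 log2 over 4 arrays, beside a median of 0.14 log2 over 22968 probe sets. With 4 arrays and so flat a profile, this is a description of likeness and nothing more.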

How the data were processed

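The authors deposited 1 intensity signal per probe set on a linear scale. The submitters' processing notes name MAS5, without a version. Biotin-labelled cRNA was hybridised, per the labels' protocols. Samples were grouped by their titles. Log2 was taken of the signals as they stand. Array medians differed by 0.21 log2, under a limit of 0.3, so arrays were not rescaled. The 64 control probe sets were left out, and those above the 40th percentile of mean log2 signal (5.73) were tested with limma 3.58.1 in R 4.3.3 (lmFit, eBayes with an intensity trend, no replicate block, two-sided, Benjamini-Hochberg over all 27022). The code was tested on simulated data. With 2 arrays per group an exact permutation cannot go below p = 0.333, and none was run. All members are named with every probe set, and from each context list genes past the threshold and up to 3 with the smallest p, on the brightest tested probe set. Detection calls were not used here. The members, lists and tests were chosen with earlier results of these data known. A planned protein comparison of KLF2, KLF4 and KLF5 was not run. Alternatives were quantile normalization, centring on array medians, a pseudocount of 25.4, other filters, no trend, a replicate block, leaving out each array and a threshold of 0.1. Centring on the tested probe sets was added after seeing the data.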

Additional observations from a re-analysis of the deposited data

How the results depend on the processing

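The count of member probe sets past the threshold was 0 in the main setting and in all 13 alternatives. The count over all probe sets was 5 (5 higher, 0 lower) and was 116 after centring on array medians (72 higher, 44 lower), 17 after centring on the medians of the tested probe sets (12 higher, 5 lower), 8 with the filter at the 60th percentile, 11 at an adjusted p under 0.1 and 16 to 141 when an array was left out. It was 0 without the intensity trend, where 1023 probe sets had an unadjusted p under 0.05. The cause of these moves was not tested. With the replicate block 11 probe sets passed. Same-numbered arrays deviated together (r = 0.15 over the tested probe sets, 2 pairs), the labels do not say what the number marks, and the block changed no member's call. For 11 of the 15 member probe sets the gap between replicate numbers exceeded the difference between treatments. The share over all tested probe sets was not computed, so this count cannot be called particular to the members. The median member difference was -0.049 log2 without untreated replicate 2 to 0.076 log2 without untreated replicate 1. On the brightest probe sets Klf5 turned to 0.014 log2 with quantile normalization and Sox2 to -0.016 log2 with centring on the tested probe sets. With an array left out, Sox2 ran from -0.019 to 0.049, Klf4 from -0.18 to 0.089, Klf5 from -0.079 to 0.073, Esrrb from -0.099 to 0.079 and Tfcp2l1 from -0.095 to 0.053 log2. The other 10 member probe sets kept their sign in all 12 settings followed. The filters, the variance model and the replicate block leave each difference as it is, so they could not turn a sign. Leaving out an array could not turn it either for both Tbx3 probe sets, the dimmer Klf5 and the dimmer Klf4, whose groups did not overlap. The widest range over the probe sets of a gene, 0.45 log2 for Esrrb, was the same with the stricter filter. That filter kept every tested Esrrb probe set and leaves each difference as it is, so this range could not have changed. Leaving out an array leaves a lone sample, assumed to vary like the other group.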
